A study of Mus musculus with 3 samples.

Results

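Secreted Wnt antagonists are extracellular proteins that lower signalling by Wnt ligands. They were taken by gene symbol from the deposited feature lists, and all 10 members (Dkk1, Dkk2, Dkk3, Sfrp1, Sfrp2, Sfrp4, Sfrp5, Frzb, Wif1 and Notum) were present among the 32285 genes of each library. The rule itself used no measured value, but the members were chosen with earlier results of these data known. The data are droplet single-cell RNA profiles of bone-lining cells (BLCs), which cover bone surfaces, from wild-type mice. The 3 libraries are replicates of a single group, Alcam+Sca-1- BLCs, and hold no treated, mutant or control arm. Collagenase released the cells from flushed fragments of the femora, tibias and iliac bones, and sorting kept those with Alcam and without Sca-1, the blood markers CD45 and Ter119 or the endothelial marker CD31. The labels give neither age nor sex, and nothing in them says how many mice were pooled in a library, so the spread between libraries may be partly technical.

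Wnt ligands bind a Frizzled receptor together with the co-receptor Lrp5 or Lrp6, which stabilises β-catenin and switches on target genes through the Tcf/Lef factors. The antagonists act at different steps. Dkk1 and Dkk2 occupy Lrp5 and Lrp6. The secreted Frizzled-related proteins (Sfrp1, Sfrp2, Sfrp4, Sfrp5 and Frzb) and Wif1 bind the ligands themselves. Notum is a carboxylesterase that removes the lipid on which Wnt activity depends. Dkk3 is a divergent Dkk family member whose part in Wnt signalling is less clear. In the skeleton, Wnt signalling promotes bone formation by osteoblasts and shapes chondrocyte maturation, and Frzb and Dkk1 are known in articular and growth plate cartilage and in bone.

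The 10 genes are protein-coding. In the GENCODE annotation of GRCm38, the assembly that mm10 names, Dkk1 is at chr19:30545863-30549665, Dkk2 at chr3:132085292-132180304 and Dkk3 at chr7:112116017-112159057. The Frizzled-related genes are Sfrp1 at chr8:23411502-23449632, Sfrp2 at chr3:83766321-83774316, Sfrp4 at chr13:19623104-19632994, Sfrp5 at chr19:42197971-42202252 and Frzb at chr2:80411970-80447625. Wif1 lies at chr10:121033960-121100650 and Notum at chr11:120653788-120661175. On the opposite strand, Notum overlaps Notumos and Myadml2os, and Sfrp2 overlaps Gm26771. These partners had 271, 500 and 134 UMIs against 7674 of Notum and 1448 of Sfrp2, and the handling of strand in the counting was not given in the sources used here.

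Promoter windows, from 250 bases before to 50 bases after the annotated start, were matched in the RefSeq table of GRCm38.p6 for 6 of the 10 members. The windows of Dkk1, of Wif1 and Frzb, and of Dkk2 and Sfrp2 are shown because Dkk1 had the largest called difference between cartilage populations and the other genes form the pairs of members whose levels ran closest together below. Capitals mark the Tcf/Lef-type motif CTTTGAA or CTTTGAT, read on both strands.
Dkk1, chr19:30549447-30549746, minus strand: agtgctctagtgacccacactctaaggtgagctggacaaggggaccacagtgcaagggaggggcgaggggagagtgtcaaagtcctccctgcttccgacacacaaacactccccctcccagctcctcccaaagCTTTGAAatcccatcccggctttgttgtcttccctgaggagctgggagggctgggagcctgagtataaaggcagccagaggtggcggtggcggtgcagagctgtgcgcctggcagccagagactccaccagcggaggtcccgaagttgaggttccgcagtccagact
Wif1, chr10:121033754-121034053, plus strand: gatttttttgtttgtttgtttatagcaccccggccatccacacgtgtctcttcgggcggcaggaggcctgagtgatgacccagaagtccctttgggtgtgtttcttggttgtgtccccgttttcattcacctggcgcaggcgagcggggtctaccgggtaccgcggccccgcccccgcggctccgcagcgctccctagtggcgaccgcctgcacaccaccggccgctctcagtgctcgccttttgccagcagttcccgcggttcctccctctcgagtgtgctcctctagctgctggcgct
Frzb, chr2:80447347-80447646, minus strand: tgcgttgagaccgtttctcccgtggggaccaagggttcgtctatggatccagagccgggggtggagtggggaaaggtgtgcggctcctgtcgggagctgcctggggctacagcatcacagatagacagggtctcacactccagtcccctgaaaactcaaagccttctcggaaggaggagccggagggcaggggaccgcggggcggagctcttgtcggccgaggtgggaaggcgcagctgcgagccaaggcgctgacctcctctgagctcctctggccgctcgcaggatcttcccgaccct
Dkk2, chr3:132085042-132085341, plus strand: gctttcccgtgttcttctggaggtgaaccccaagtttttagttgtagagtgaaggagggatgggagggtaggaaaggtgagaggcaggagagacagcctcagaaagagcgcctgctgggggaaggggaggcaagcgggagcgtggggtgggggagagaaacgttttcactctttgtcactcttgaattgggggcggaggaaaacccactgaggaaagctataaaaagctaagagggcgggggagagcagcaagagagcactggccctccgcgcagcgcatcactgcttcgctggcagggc
Sfrp2, chr3:83766071-83766370, plus strand: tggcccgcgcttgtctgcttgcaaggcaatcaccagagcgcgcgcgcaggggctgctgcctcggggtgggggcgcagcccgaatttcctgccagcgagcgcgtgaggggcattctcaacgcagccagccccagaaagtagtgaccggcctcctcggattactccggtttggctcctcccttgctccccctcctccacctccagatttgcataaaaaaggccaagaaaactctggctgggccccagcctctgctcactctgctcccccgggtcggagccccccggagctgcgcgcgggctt
The motif occurred once, in the Dkk1 window at position -117 from the start, and in none of the other 5 windows. Of 32851 windows in the table, 8.65% held it. A TATAAA sequence, held on either strand by 13.6% of all windows, was present at position -54 of the Dkk1 window at position -32 of the Dkk2 window and at position -232 of the Wif1 window. These are matches of letters, not measured binding sites.

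The libraries held 2606 to 10529 barcodes and 20985636 to 79905165 UMIs (unique molecular identifiers, each counting a captured transcript). After filters, 2476, 6363 and 9393 cells of replicates 1, 2 and 3 were analysed, with medians of 5614, 9704 and 5814 UMIs per cell. Between 5 and 28 barcodes were shared by a pair of libraries. Cells were clustered without the members or 65 other Wnt pathway genes among the variable genes, and clusters were named from marker lists. Cartilage-like cells made up 16.1% of replicate 1 but 82.7% and 82.8% of replicates 2 and 3, and blood-like cells made up 23.2%, 3.30% and 3.72% despite the gate. Replicate 1 therefore stood apart, and each comparison is given with and without it. P-values measure how much the differences between populations varied across these 3 libraries, after overall shifts between libraries were removed. Where single named populations were compared, that spread came from 1 fit over all named cartilage and stromal populations. A small p-value there need not mean that all 3 libraries agreed. Intervals cover counting error only. The clusters were built from genes that run with the populations compared, so the share of all genes called is given beside each count. Levels are CPM, the UMIs of a gene per 1000000 UMIs summed over the cells of a population in a library, and were taken where at least 10 cells were present. A value read from 3 libraries is a mean ± SD.

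Of the 13444 cartilage-like cells, 5789 were growth-plate-like, 2667 superficial-like, 829 hypertrophic-like, 1121 Cytl1-marked and 301 cycling, and 2737 had no state name. Most of the last were a cluster with Omd among its leading genes, which against other cartilage was led by Col1a1, Col3a1 and Ibsp (2656 cells, called the Omd cluster here). Growth-plate-like cells came from a Prkg2 cluster, a cluster led by Serpina1a with Pthlh, a cluster led by Chil1 with the highest level of Lef1, and a cluster of low depth. The name of the Lef1 cluster is borderline, with a growth plate marker score of 0.525 against a cut of 0.5. None of its leading genes against other cartilage was a growth plate marker, and comparisons with growth-plate-like cells include it. The growth-plate-like mixture differed between libraries, because the Prkg2 cluster held 2 cells of replicate 1 and 970 and 1077 of replicates 2 and 3, whereas 42 of the 73 growth-plate-like cells of replicate 1 were in the Lef1 cluster. The other stroma (3153 cells) comprised osteoblast-like, Cxcl12-abundant reticular (CAR)-like, tendon-like, fibroblast-like and mural-like cells. Osteoblast-like cells were shallow, with a median of 1822 UMIs. Blood-like cells served as the reading of free RNA. In them Wif1 stood at 4.43, 49.0 and 36.2 CPM in replicates 1, 2 and 3 and Frzb at 0.324, 4.32 and 13.8 CPM, and the other 8 members had at most 5.62 CPM in any library.

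**Figure D1:**
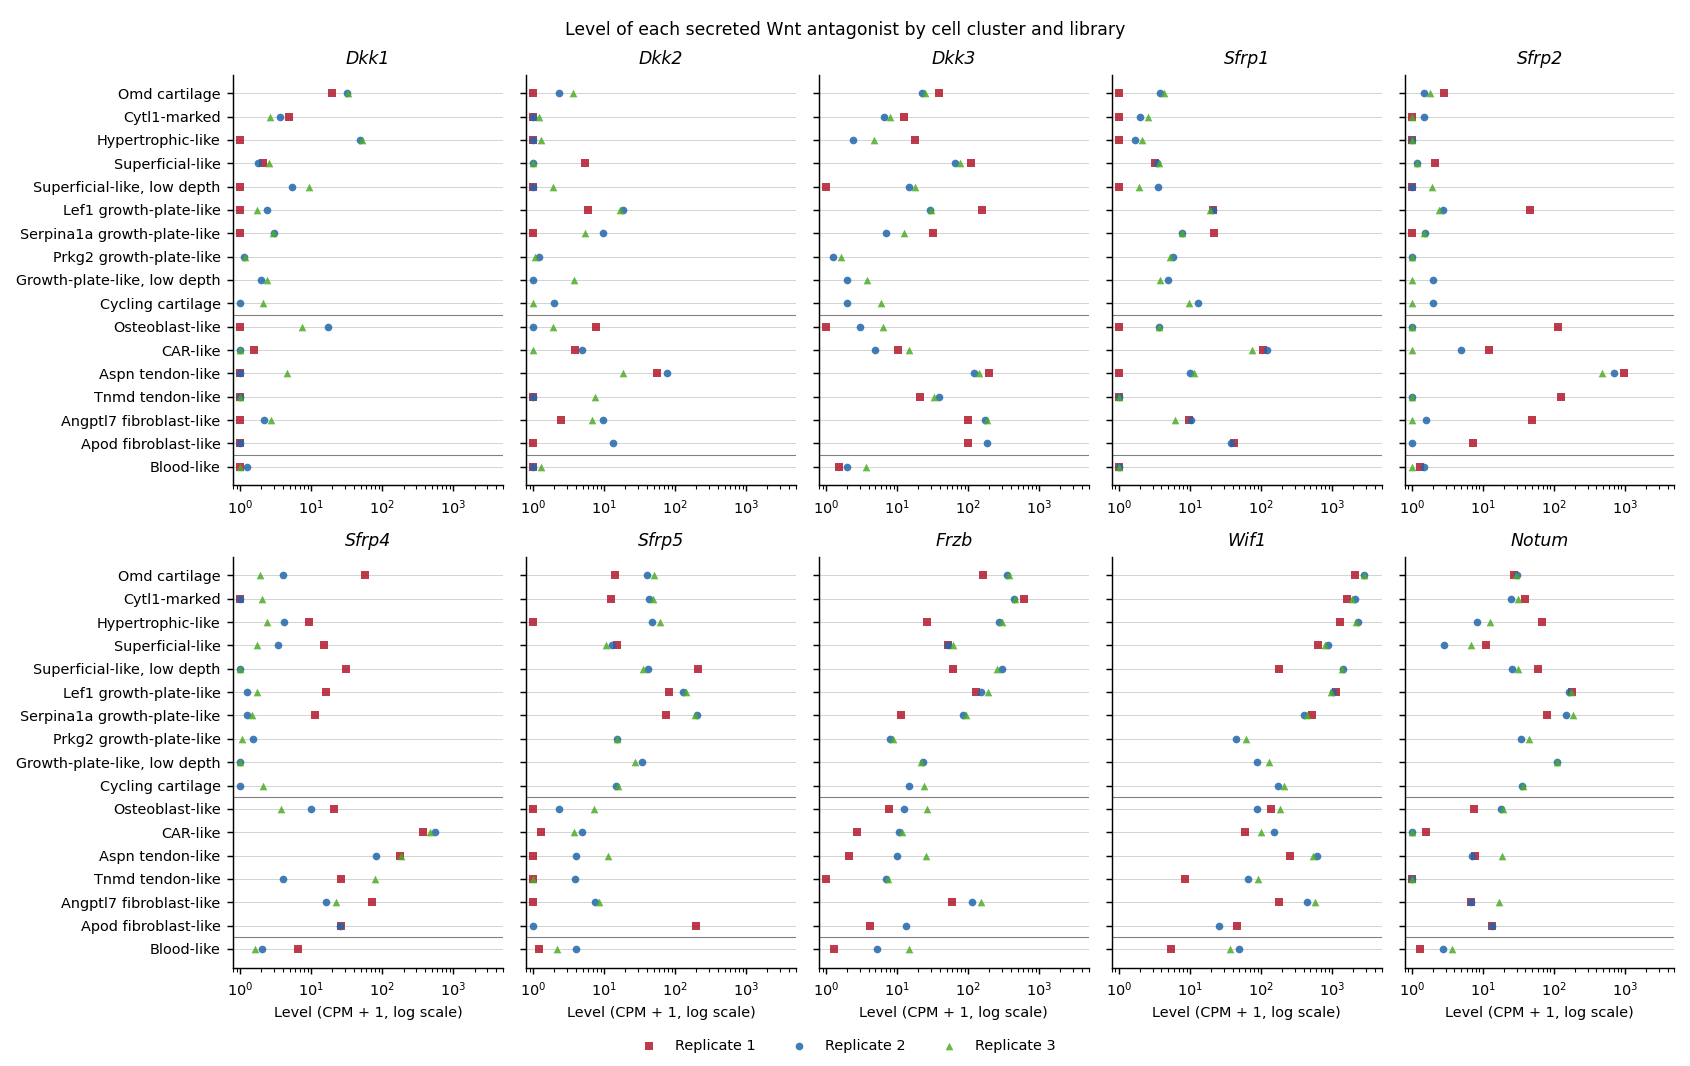
Level of each member (CPM + 1, log scale) in the named clusters of at least 10 cells and in all blood-like cells, one point per library (red squares, replicate 1; blue circles, replicate 2; green triangles, replicate 3). Cartilage-like clusters are above the upper grey line and other stroma below it. Wif1 reached 2588 ± 433 CPM in the Omd cartilage cluster, Sfrp2 was concentrated in the Aspn tendon-like cluster and Sfrp4 in CAR-like cells.

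Among the Dkk genes, Dkk1, the Lrp5/6 blocker, was read mainly in 2 cartilage clusters that both had Omd and Ibsp among their leading genes. In the hypertrophic-like cluster its level was 0, 47.2 and 51.1 CPM in replicates 1, 2 and 3, where replicate 1 contributed 11 cells in which 3 UMIs would already be 25.5 CPM. In the Omd cluster the values were 19.0, 30.9 and 31.8 CPM. The ranges of these 2 clusters overlapped, and both replicates 2 and 3 of either cluster lay above all other cartilage and stromal clusters. Osteoblast-like cells came next at 0, 16.4 and 6.35 CPM (31 UMIs in all), and the Prkg2 growth-plate-like cluster had 0.149 and 0.162 CPM in replicates 2 and 3. Cartilage cells with no state name held 59.3% and 56.8% of all Dkk1 UMIs of replicates 2 and 3, and hypertrophic-like cells 25.8% and 32.4%.

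Dkk2, which also binds Lrp5/6, was highest in the tendon-like cluster led by Aspn, Postn and Mfap4, at 54.6, 76.2 and 17.6 CPM. The Lef1 growth-plate-like cluster followed at 5.01, 17.6 and 15.9 CPM, and its highest value touched the lowest of the Aspn cluster. All other clusters had a mean of at most 6.21 CPM. Growth-plate-like cells held 77.4% and 75.3% of the Dkk2 UMIs of replicates 2 and 3, whereas tendon-like cells held 73.8% in replicate 1.

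Dkk3 had the broadest distribution of the Dkk genes. Its level was 194, 119 and 144 CPM in the Aspn tendon-like cluster and 98.6, 171 and 188 CPM in the Angptl7 fibroblast-like cluster, and these did not differ beyond their spread. The superficial-like cluster led by Cilp and Msmp had 109.9, 64.4 and 76.6 CPM. In the Lef1 cluster replicate 1 (155 CPM) was far above replicates 2 and 3 (28.5 and 29.5 CPM). The Prkg2 cluster had 0.248 and 0.647 CPM.

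Of the ligand-binding members, Sfrp1 was highest in stroma. CAR-like cells, the Cxcl12-producing reticular cells of the marrow, had 107, 116 and 74.1 CPM. The range of their main cluster, 74.1 to 122 CPM, lay above the Apod fibroblast-like cluster, with 41.3 and 37.2 CPM in the 2 libraries with enough cells, which in turn lay above the Lef1 cluster at 20.0, 20.0 and 18.4 CPM. Within cartilage the Lef1 cluster was thus the highest on average, although the Serpina1a cluster reached 21.1 CPM in replicate 1 against 6.74 and 6.81 CPM in replicates 2 and 3. Schwann-like cells, the glia of peripheral nerves, had 188, 175 and 29.1 CPM from 71 UMIs. No UMI of Sfrp1 was found in the 1133 blood-like cells.

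Sfrp2 was close to a single-cluster gene. The Aspn tendon-like cluster had 981, 704 and 482 CPM and the next, the Tnmd tendon-like cluster, 125, 0 and 0 CPM, so their ranges did not overlap. Tendon-like cells held 89.3%, 86.5% and 85.6% of all Sfrp2 UMIs in replicates 1, 2 and 3, although the libraries differed in makeup. Outside tendon-like cells the signal was mostly of replicate 1: osteoblast-like cells had 113 CPM there, from 17 UMIs in 1 of 32 cells, and none in the others, and the Angptl7 fibroblast-like cluster had 48.6, 0.587 and 0 CPM.

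Sfrp4 marked CAR-like cells, with 355, 522 and 455 CPM, and their main cluster lay above every other cluster read in 3 libraries. The Aspn tendon-like cluster followed at 179.7, 82.3 and 186 CPM. The Angptl7 fibroblast-like cluster had 72.1, 15.3 and 21.8 CPM, within the range of the Tnmd tendon-like cluster at 25.5, 2.97 and 77.7 CPM. In cartilage Sfrp4 was low in replicates 2 and 3 (the Omd cluster had 3.03 and 0.913 CPM) and higher in replicate 1 (56.9 CPM in that cluster).

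Sfrp5 was highest in 2 of the growth-plate-like clusters in replicates 2 and 3. The Serpina1a cluster had 73.7, 204 and 192 CPM and the Lef1 cluster 80.1, 127 and 139.8 CPM, and the 2 overlapped. The Omd, Cytl1-marked and hypertrophic-like clusters had means between 33.7 and 35.8 CPM that also overlapped each other. The Prkg2 cluster, the largest of the growth-plate-like clusters, was below these in replicates 2 and 3, at 14.4 and 14.5 CPM. Growth-plate-like cells held 76.1% and 68.6% of its UMIs in replicates 2 and 3. In replicate 1 they held 18.6%, and fibroblast-like cells held 38.5%, with 197 CPM in the Apod cluster there and 0 in replicate 2.

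Frzb, also called Sfrp3, was highest in the Cytl1-marked cluster, whose leading genes include Slurp1 and Prg4 (lubricin, a surface lubricant of joints). Its level there was 619, 439.8 and 463 CPM, above the range of the next cluster, the Omd cells, at 163, 353 and 372 CPM. The hypertrophic-like cluster had 25.5, 270.5 and 297 CPM and the Lef1 cluster 130.2, 153 and 193 CPM. The Prkg2 cluster, at 6.95 and 7.93 CPM, was close to the blood-like reading. Among other stroma the Angptl7 fibroblast-like cluster stood out at 58.9, 112 and 150.3 CPM.

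Wif1, which binds Wnt ligands through its WIF domain, was the most widely detected member, with at least 1 UMI in 60.5% of the 18232 cells. Its level was 2089.9, 2869.9 and 2804 CPM in the Omd cluster, 1309, 2307 and 2153 CPM in the hypertrophic-like cluster and 1629, 2116 and 1918 CPM in the Cytl1-marked cluster. The hypertrophic-like range overlapped both of the others. The Lef1 cluster had 1127, 1049 and 959 CPM and the superficial-like Cilp cluster 639, 871 and 794 CPM. The Prkg2 cluster had 43.7 and 61.6 CPM in replicates 2 and 3, next to 49.0 and 36.2 CPM in the blood-like cells of those libraries. In the other stroma, CAR-like cells at 84.3, 245 and 192 CPM, fibroblast-like cells at 138, 431 and 571 CPM, tendon-like cells at 178, 337 and 381 CPM and osteoblast-like cells at 139, 86.6 and 188 CPM were above the blood-like cells of their own library in each of 3 libraries. Osteoblast-like cells were much shallower than blood-like cells, with medians of 2406 against 16886 UMIs in replicate 2 and 1538.5 against 8267 in replicate 3. CPM does not account for that, and whether their Wif1 level was free RNA was not tested.

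Notum was highest where Lef1 was highest. The Lef1 cluster had 180.3, 163 and 173 CPM of Notum, the Serpina1a cluster 79.0, 149 and 184 CPM and the low-depth growth-plate-like cluster 110.2 and 111 CPM in replicates 2 and 3. The ranges of the first 2 overlapped. Lef1 itself had means of 407 ± 165, 314 ± 74.6 and 179 ± 4.82 CPM in the same clusters, and these were its 3 highest named cartilage and stromal clusters too. In the Prkg2 cluster Notum was 33.6 and 43.8 CPM. CAR-like cells had 1.89, 1.82 and 0 CPM, against 0.324, 1.78 and 2.69 CPM in blood-like cells.

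**Figure D2:**
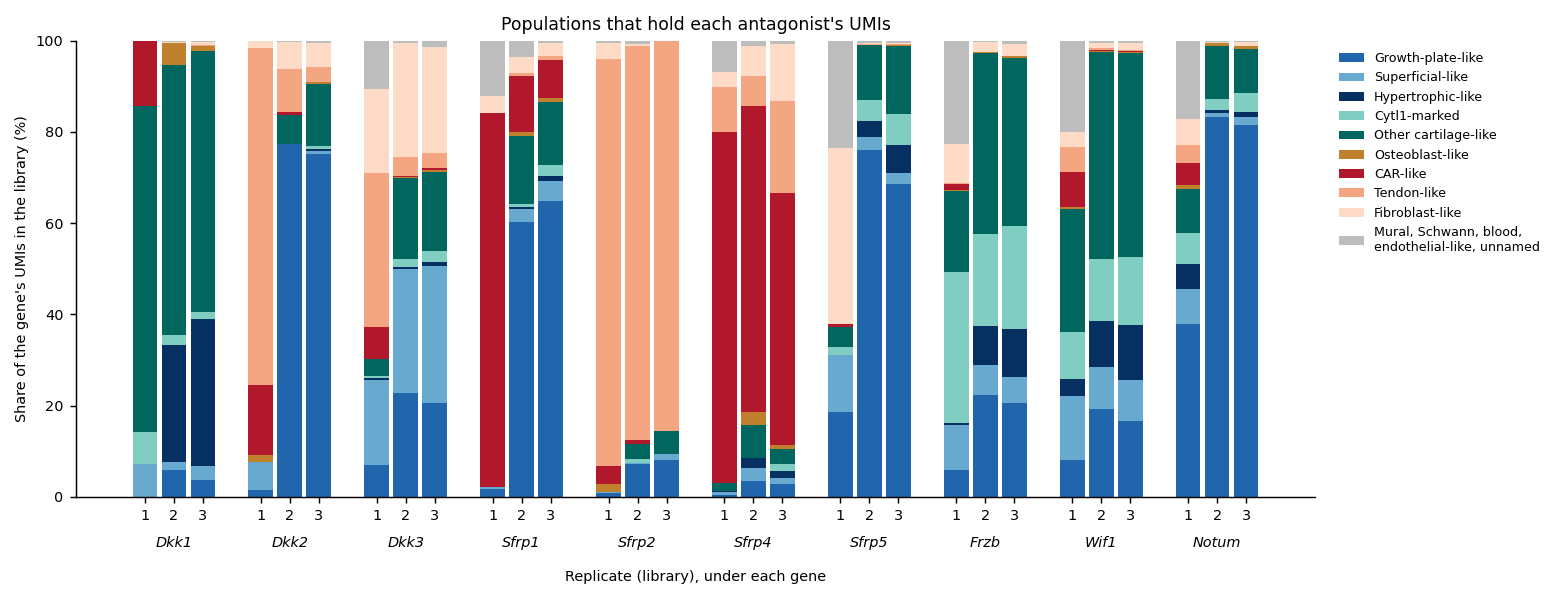
Share of each member's UMIs (%, linear axis from 0) held by each population, one bar per library, with replicates 1, 2 and 3 from left to right under each gene. Sfrp2 was held by tendon-like cells in every library (85.6% to 89.3%), whereas Sfrp1, Dkk2 and Sfrp5 moved between populations between replicate 1 and the others.

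Whether antagonist transcripts lay in cartilage or in the other stroma was tested on sums per library, with the library as a block. Of 13352 genes tested, 30.4% were called at an adjusted p below 0.05, and 5 of the 10 members were: 3 higher in cartilage-like cells and 2 lower. The median log2 fold change was 0.41 over the members and 0.0027 over all genes. Notum was higher in cartilage-like cells (43.3, 59.8 and 68.2 CPM against 3.40, 8.73 and 14.3 CPM), by a log2 fold change of 3.14 ± 0.34 (SE, edgeR quasi-likelihood test, adjusted p = 0.00571). Sfrp5 was higher by 3.15 ± 0.47 (edgeR, adjusted p = 0.0119) and Wif1 by 2.54 ± 0.47 (edgeR, adjusted p = 0.0193). Each was higher in 3 of 3 libraries, with no overlap between the groups. Sfrp2 differed by -5.89 ± 0.43 (edgeR, adjusted p = 0.00241; 4.86, 0.487 and 0.434 CPM against 156, 52.4 and 37.1 CPM) and Sfrp4 by -5.26 ± 0.85 (edgeR, adjusted p = 0.0141). Frzb had 155 CPM against 46.2 CPM on average and was higher in 3 of 3 libraries without passing (2.45 ± 0.70, edgeR, adjusted p = 0.0560), and Sfrp1 was lower in 3 of 3 without passing (-1.70 ± 0.49, edgeR, adjusted p = 0.0572). Without replicate 1 all 10 members were called, where 55% of 17311 genes were. The Dkk3 difference moved from -1.32 to -2.30 and Frzb from 2.45 to 1.55 when it was left out. The makeup of the other stroma also differed between libraries. In replicates 1, 2 and 3 it held 624, 90 and 110 CAR-like cells of 1129, 837 and 1187, and 32, 391 and 534 osteoblast-like cells. Its pooled levels, such as Frzb at 7.74, 48.8 and 82.0 CPM, are readings of these mixtures. How much of a difference or its movement came from makeup was not tested.

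Of the other Wnt pathway genes, 45 of 65 could be tested here: 6 were higher in cartilage-like cells, 16 lower and 23 not called. The largest positive differences were Lef1 (3.81 ± 0.17), the ligand Wnt7b (3.75 ± 0.42) and the Lgr agonist Rspo4 (2.98 ± 0.69). The largest negative ones were Rspo2 (-5.97 ± 0.45), the ligand Wnt6 (-3.85 ± 0.25) and Lrp4 (-3.55 ± 0.37), a co-receptor family member that binds sclerostin and Dkk1. Among the response genes Axin2 (-1.37 ± 0.29), Nkd2 (-3.49 ± 0.21), Apcdd1 (-1.73 ± 0.18) and Znrf3 (-0.60 ± 0.14) were lower in cartilage-like cells, opposite in sign to Lef1. All of these passed edgeR's test over all genes.

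Superficial-like and growth-plate-like cartilage were compared next. Of 14532 genes, 43.1% were called, and 7 of 10 members were: 3 higher and 4 lower in superficial-like cells. The members' median was -0.45 and that of all genes -0.01. Notum differed by -3.54 ± 0.25 (edgeR, adjusted p = 3.79e-12), with 11.8, 6.12 and 9.96 CPM in superficial-like cells and 131, 87.6 and 114 CPM in growth-plate-like cells, and the groups did not overlap. Sfrp5 (-2.23 ± 0.42; 21.4, 17.2 and 13.8 against 71.2, 78.0 and 90.6 CPM) and Sfrp1 (-1.83 ± 0.34) were also lower without overlap. The Prkg2 growth-plate-like cluster alone, read in replicates 2 and 3, had 14.4 and 14.5 CPM of Sfrp5, much like superficial-like cells there. Its Notum (33.6 to 43.8 CPM) and Sfrp1 (4.29 to 4.87 CPM) were above the superficial-like values. The Sfrp5 call was lost in 4 of 12 alternatives (as near to 0 as -1.05), and the superficial-like group pools the Cilp cluster, at 11.98 CPM of Sfrp5 and 5.91 of Notum, with a low-depth cluster of 788 cells (median 1996.5 UMIs) at 94.4 and 38.1 CPM. Dkk2 was lower in the fit (-3.63 ± 0.73, edgeR, adjusted p = 0.000181), although replicate 1 had the opposite order (4.28 against 2.37 CPM). It was -5.69 without that library. Dkk3 was higher by 2.43 ± 0.39 (edgeR, adjusted p = 1.21e-05): replicates 2 and 3 had 54.9 and 66.6 CPM against 7.60 and 10.999 CPM, but replicate 1 had 106 against 87.8 CPM. The Dkk3 call was lost in 3 of 12 alternatives (as near to 0 as 0.17) and the Dkk2 call in 2. Dkk1 (1.48 ± 0.48) and Sfrp4 (2.27 ± 0.85) passed from few UMIs, 27 against 50 and 30 against 29, and the Dkk1 call was lost in 5 of 12 alternatives. The Sfrp4 difference was negative under 3 of the alternatives, and DESeq2 called 4 members here. Frzb (0.50 ± 0.36, edgeR, adjusted p = 0.275) and Wif1 (0.77 ± 0.35, edgeR, adjusted p = 0.0787) did not pass with all libraries. They did without replicate 1, at 0.64 and 1.46, where 9 members were called beside 59.4% of 13594 genes.

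In the same comparison 12 of 50 testable pathway genes were higher in superficial-like cells and 20 lower. The R-spondins Rspo4 (-5.12 ± 0.44) and Rspo3 (-4.56 ± 0.31), which raise Wnt signalling, and Lef1 (-4.91 ± 0.26) were the most negative. The R-spondin receptor Lgr6 (3.47 ± 0.24; 202 against 21.7 CPM on average), Wnt9a (2.92 ± 0.28) and Wnt16 (2.65 ± 1.02, from 15 and 10 UMIs) were the most positive. Response genes pointed both ways: Tcf7 (-1.82), Nkd1 (-0.92), Nkd2 (-2.81) and Apcdd1 (-1.30) were lower beside Lef1, and Axin2 (0.83), Lgr5 (1.81) and Rnf43 (2.29) were higher.

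Hypertrophic-like cells were compared with growth-plate-like cells because chondrocytes of the growth plate enlarge and mineralise as they mature. Here 22.2% of 14532 genes were called, and 6 of 10 members were, 3 in each direction. The median was -0.96 over the members, or -0.36 with Sfrp2 (0 UMIs in hypertrophic-like cells against 41) set at its bound, and -0.09 over all genes. Dkk1 was higher by 6.31 ± 0.35 (edgeR, adjusted p = 1.74e-13), with 47.2 and 51.1 CPM against 0.820 and 0.756 CPM in replicates 2 and 3 and no UMI in either group in replicate 1. Wif1 was higher by 2.20 ± 0.37 (edgeR, adjusted p = 4.00e-05; 1309, 2307 and 2153 against 776, 337 and 395 CPM) without overlap. Frzb was higher by 2.19 ± 0.37 (edgeR, adjusted p = 4.89e-05), in replicates 2 and 3 but not in replicate 1 (25.5 against 66.5 CPM). The Frzb call was lost in 2 of 12 alternatives. Its mean among growth-plate-like clusters ran from 7.44 CPM in the Prkg2 cluster to 159 CPM in the Lef1 cluster. The Lef1 cluster's range, 130 to 193 CPM, lay within that of hypertrophic-like cells, 25.5 to 297 CPM. Notum was lower by a log2 fold change of -2.75 ± 0.28 (edgeR, adjusted p = 1.33e-08) in 3 of 3 libraries. Sfrp1 differed by -2.79 ± 0.54, with 0.710 and 1.14 against 8.53 and 8.62 CPM in replicates 2 and 3, while its 0 UMIs in the 11 cells of replicate 1 cannot be read against 19.0 CPM, which is under the floor there. For Dkk2 there was a single UMI in hypertrophic-like cells against 353, a ratio of 0.0279 (95% counting interval 0.000705 to 0.157). Dkk3 had means of 7.38 against 35.5 CPM without passing (-1.67 ± 0.67), and under 3 alternatives that redraw the clusters it was called in the opposite direction. Without replicate 1, 8 members (now with Sfrp4 at 2.90 and Dkk3 at -1.35) and 39.5% of 13594 genes were called, and the differences of Wif1 and Frzb were 3.06 and 2.56.

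Of the pathway genes 6 of 50 were higher and 12 lower in hypertrophic-like cells. Lgr6 was higher by 3.91 ± 0.25 (242 against 21.7 CPM) and Lrp5, the co-receptor that Dkk1 occupies, by 2.03 ± 0.24 (25.6 against 7.20 CPM). Wnt16 was called at 4.42 ± 1.06, but 102 CPM in the 11 cells of replicate 1 stood beside 1.42 and 0.286 CPM in the others. Lef1 was lower (-4.13 ± 0.28). Rspo4 had 1 UMI against 738, a ratio of 0.0134 (95% counting interval 0.000338 to 0.0747), and Wnt5a had 0 against 143 UMIs, at least 4.83-fold lower with a floor of 3 UMIs over the group. Tcf7 (-1.43) and Nkd2 (-2.16) were lower too, and the other response genes tested were not called.

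**Figure D3:**
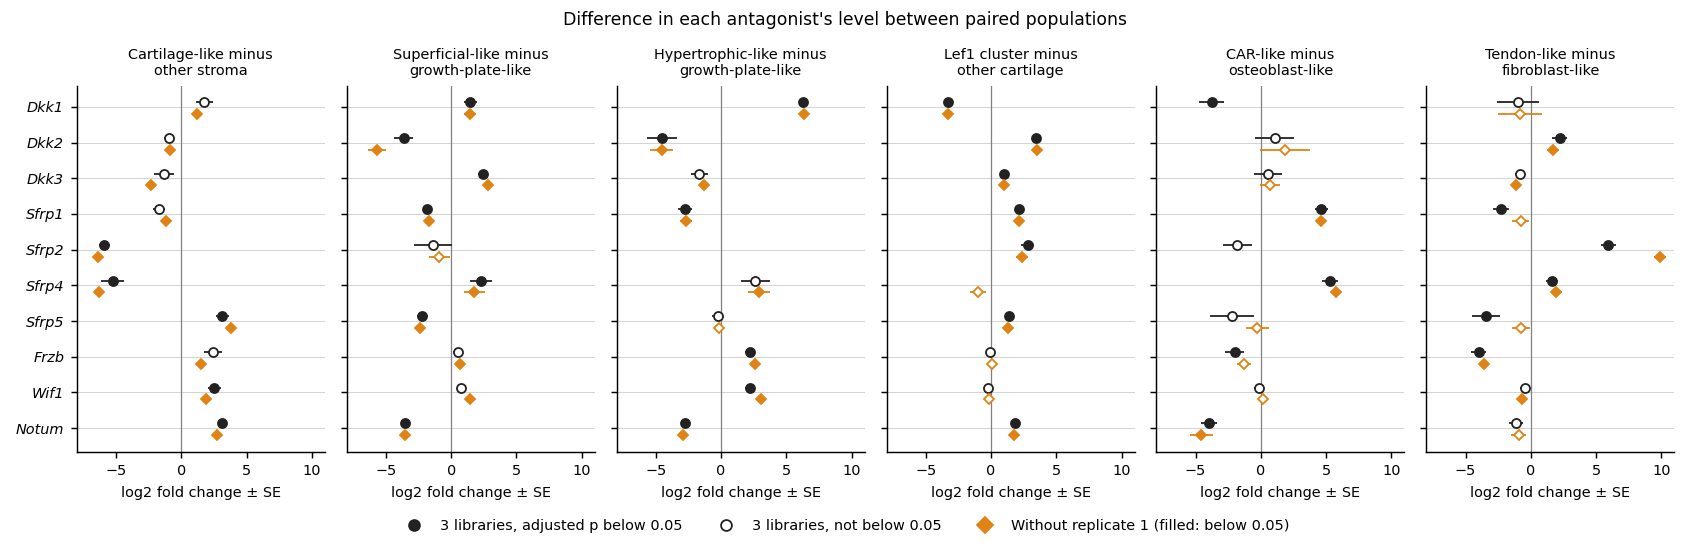
Log2 fold change ± SE of each member in the 6 comparisons with 3 libraries (black circles) and without replicate 1 (orange diamonds), filled where the adjusted p was below 0.05. Sfrp4 was not tested with 3 libraries in the Lef1 cluster comparison. Values resting on a group with no UMI are left out (Sfrp2 in hypertrophic-like against growth-plate-like cells and, without replicate 1, Dkk1 and Sfrp2 in CAR-like against osteoblast-like cells). Dkk1 was higher in hypertrophic-like than in growth-plate-like cells (6.31), and Notum was lower in both superficial-like and hypertrophic-like cells.

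The cartilage cluster with the highest summed level of 10 Wnt response genes was the Lef1 growth-plate-like cluster (1726 cells). Lef1 accounted for 407 of its 493 CPM, and Axin2 stood at 5.45 ± 0.70 CPM there, below the 40.7 ± 12.6 CPM (n = 2) of the Apod fibroblast-like cluster, so it is called by Lef1 here rather than by Wnt response. Against all other cartilage-like cells, 28.6% of 13514 genes were called, and 7 of 9 testable members were: 6 higher and 1 lower. The members' median was 1.35 and that of all genes -0.02. Notum was higher by 1.81 ± 0.16 (edgeR, adjusted p = 3.66e-06; 180.3, 163 and 173 against 30.1, 44.9 and 52.2 CPM). Sfrp1 was higher by 2.17 ± 0.16 (edgeR, adjusted p = 7.70e-07; 20.0, 20.0 and 18.4 against 2.91, 4.50 and 3.79 CPM) and Dkk2 by 3.46 ± 0.22 (edgeR, adjusted p = 1.51e-07). Sfrp5 (1.35 ± 0.15), Dkk3 (0.99 ± 0.14) and Sfrp2 (2.81 ± 0.51, from 33 and 32 UMIs) were higher in 3 of 3 libraries as well. The Dkk3 call was lost in 3 of 12 alternatives, and at the higher clustering resolution it was called in the opposite direction (-0.50, edgeR, adjusted p = 0.0253). Dkk1 was lower, by a log2 fold change of -3.29 ± 0.32 (edgeR, adjusted p = 7.70e-06; 0, 1.38 and 0.708 against 5.82, 8.60 and 11.6 CPM). Frzb (-0.05 ± 0.19) and Wif1 (-0.24 ± 0.23) were not called, which does not show that they were alike, and Frzb was called higher (0.90) with members and pathway genes among the variable genes. Without replicate 1 the same count, 7, was called beside 39.6% of genes. Without the library block 4 members and 928 genes were called, and with a mitochondrial limit of 10% a different cluster of 339 cells was picked, with no member of 6 called by edgeR (1 at an unadjusted p below 0.05).

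Of 35 testable pathway genes outside the response list, 9 were higher in the Lef1 cluster and 3 lower. The receptors Fzd1 (1.56 ± 0.16), Fzd7 (1.44 ± 0.14) and Fzd2 (1.02 ± 0.14) were the most positive, and 8 of 16 receptors and co-receptors were called, all higher. Rspo4 (-2.07 ± 0.29), Lgr6 (-1.78 ± 0.17) and the ligand Wnt4 (-1.47 ± 0.13) were lower.

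CAR-like and osteoblast-like cells, the marrow reticular and the bone-forming stroma, differed in 29.6% of 14532 genes and in 5 of 10 members, 2 higher and 3 lower in CAR-like cells. The members' median was -0.98 and that of all genes 0.05. Sfrp4 was higher by 5.30 ± 0.59 (edgeR, adjusted p = 3.44e-08; 355, 522 and 455 against 19.9, 8.86 and 2.72 CPM) and Sfrp1 by 4.64 ± 0.47 (edgeR, adjusted p = 4.98e-09; 107, 116 and 74.1 against 0, 2.73 and 2.72 CPM). Neither overlapped between the groups. Notum was lower, by a log2 fold change of -3.99 ± 0.59 (edgeR, adjusted p = 4.01e-06), from 8 and 46 UMIs. Dkk1 had 2 UMIs in CAR-like and 31 in osteoblast-like cells, a ratio of 0.0377 (95% counting interval 0.00437 to 0.148). Frzb was called lower (-1.999 ± 0.73, edgeR, adjusted p = 0.0394) from 17 and 46 UMIs, a call lost in 7 of 12 alternatives, and was no longer called without replicate 1 (-1.28), where 4 members were called beside 31.7% of 13594 genes. Osteoblast-like cells had 6.63, 17.0 and 18.1 CPM of Notum and 6.63, 11.6 and 25.4 CPM of Frzb. Their medians in replicates 2 and 3 were 2406 and 1538.5 UMIs, against 16886 and 8267 in blood-like cells, the free RNA reading. CPM does not account for that depth, and how much of either level was free RNA was not tested. Of the pathway genes 10 of 50 were higher and 14 lower. Rspo3 was higher by 4.83 ± 0.39, Rspo2 had 367 against 2 UMIs, a ratio of 107 (95% counting interval 29.5 to 889), and Lgr5 251 against 3 UMIs, a ratio of 48.9 (95% counting interval 16.5 to 239). Lgr6 (-4.09 ± 0.48) and the response genes Tcf7 (-3.01 ± 0.31), Lef1 (-1.82 ± 0.52) and Nkd2 (-1.79 ± 0.35) were lower, Nkd1 was higher (1.65 ± 0.60), and the osteogenic ligand Wnt10b had 0 against 10 UMIs, at least 5.70-fold lower with a floor of 3 UMIs over the group.

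Tendon-like and fibroblast-like cells differed in 11.3% of 14532 genes and in 6 of 10 members, 3 in each direction. The members' median was -0.90 and that of all genes -0.05. Sfrp2 was higher in tendon-like cells by 5.95 ± 0.57 (edgeR, adjusted p = 1.70e-08; 718, 347 and 312 against 35.2, 0.560 and 0 CPM), the largest difference among the members here. Dkk2 was higher by 2.20 ± 0.55 (edgeR, adjusted p = 0.00624; 37.8, 37.6 and 13.7 against 1.006, 8.97 and 5.68 CPM) and Sfrp4 by 1.64 ± 0.46 (edgeR, adjusted p = 0.0172), each in 3 of 3 libraries. Both groups pool unlike clusters. Mean Sfrp2, Dkk2 and Sfrp4 were 722, 49.5 and 149 CPM in the Aspn tendon-like cluster. In the Tnmd tendon-like cluster they were 41.7, 2.16 and 35.4 CPM, with Sfrp2 found in replicate 1 alone. The Angptl7 fibroblast-like cluster had 16.4, 5.34 and 36.4 CPM and the Apod cluster 3.18, 6.21 and 25.1 CPM (n = 2). Over 12 alternatives the Sfrp4 call was lost in 7 (adjusted p up to 0.399), that of Dkk2 in 3 (up to 0.265), that of Sfrp1 in 6 and that of Sfrp5 in 4. Frzb was lower by a log2 fold change of -3.98 ± 0.57 (edgeR, adjusted p = 8.12e-06; 0.787, 7.52 and 18.2 against 41.2, 107 and 149 CPM), and its tendon-like values were close to those of blood-like cells. Sfrp5 (-3.42 ± 1.07) and Sfrp1 (-2.29 ± 0.62) were called lower with all libraries but not without replicate 1, at -0.74 and -0.78. Leaving it out gave 6 called members beside 16% of genes, now with Dkk3 (-1.17) and Wif1 (-0.67). Pathway genes were higher in 8 of 50 and lower in 5. Wnt16 (6.35 ± 0.75, from 210 and 4 UMIs), Wnt5a (3.82 ± 0.37) and Nkd2, an inducible feedback inhibitor of the pathway (2.65 ± 0.37), were the most positive, each higher in 3 of 3 libraries, and Lgr5 (2.33 ± 0.62) was higher too. Nkd2 stood at 45.5 ± 5.88 CPM (n = 2) in the Apod cluster and 2.14 ± 0.69 CPM in the Angptl7 cluster. The Aspn and Tnmd clusters had 32.8 ± 6.17 and 64.4 ± 22.6 CPM of it. Mean Wnt16, Wnt5a and Lgr5 were 152, 83.3 and 40.6 CPM in the Aspn cluster, against 0, 30.1 and 0.851 CPM in the Tnmd cluster. Lgr6 (-2.47 ± 0.40) was lower, Rspo2 had 1 against 23 UMIs, a ratio of 0.0831 (95% counting interval 0.00202 to 0.512), and Fzd10 had 0 against 12 UMIs, at least 2.09-fold lower.

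Detection in single cells was compared after each cell had been thinned to 2000 UMIs, which left out 2104 of 18232 cells that had fewer. The loss was uneven: 518 of 957 osteoblast-like and 579 of 2667 superficial-like cells, against 231 of 5789 growth-plate-like cells. Wif1 was then found in 95.4% ± 0.27 (n = 2) of hypertrophic-like cells, 86.5% ± 10.5 (n = 3) of Omd cells, 9.27% of Prkg2 cells and 2.80% ± 1.55 (n = 3) of blood-like cells. Before thinning, the share was 92.1% ± 8.95 (n = 3) in hypertrophic-like and 14.7% in blood-like cells. Sfrp4 was found in 49.4% ± 8.05 of cells of the main CAR-like cluster against 0.286% of blood-like cells, Sfrp2 in 27.3% ± 2.23 of Aspn tendon-like cells, and Notum in 24.5% ± 1.16 of Lef1 cells against 0.731% of blood-like cells. Dkk1 was sparse even where it was highest, in 6.34% ± 1.14 (n = 2) of hypertrophic-like cells and no blood-like cell. Shares without a stated n are means over 3 libraries, except in the Prkg2 cluster (2 libraries).

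Cells differed in how many antagonists they carried at this depth. The mean number of members per cell was 1.86, 1.42 and 1.501 in the Lef1 cluster and 1.39, 1.505 and 1.56 in the Omd cluster. In the Prkg2 cluster it was 0.176 and 0.260, and 83.8% and 76.8% of those cells had none. At least 3 members were seen in 27.8%, 15.1% and 16.1% of Lef1 cells and in 12.2%, 7.98% and 8.69% of Omd cells. The Lef1 cluster thus had the largest share of cells with several antagonists among the clusters plotted, and the Prkg2 cluster, also growth-plate-like, one of the lowest means.

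**Figure D4:**
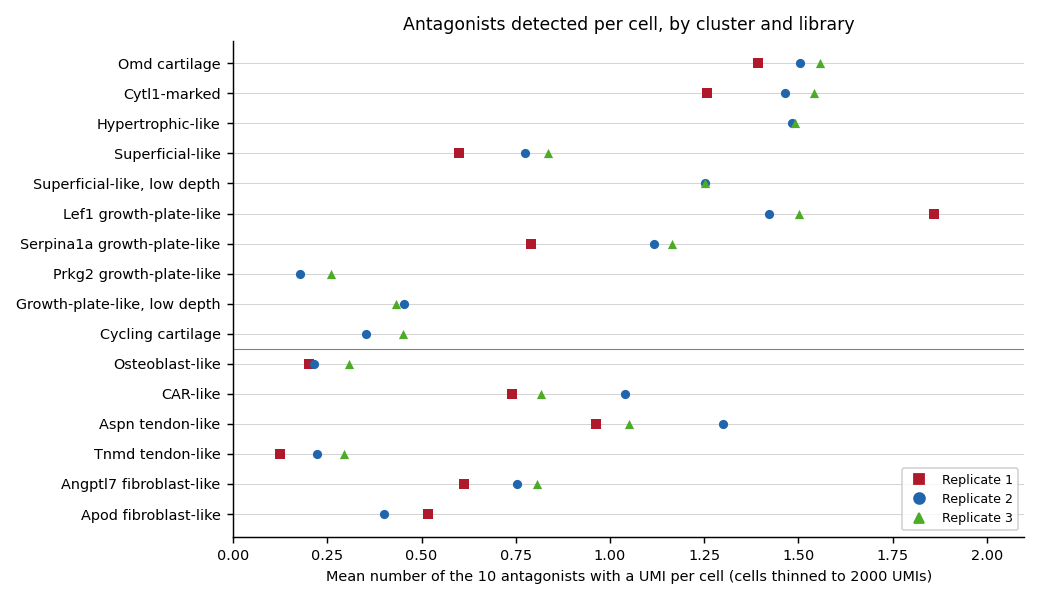
Mean number of the 10 members with at least 1 UMI per cell, after thinning to 2000 UMIs, in clusters with at least 10 such cells, one point per library (red squares, replicate 1; blue circles, replicate 2; green triangles, replicate 3). The Omd, Cytl1-marked, hypertrophic-like and Lef1 clusters lay at 1.26 or above, and the Prkg2, osteoblast-like and Tnmd tendon-like clusters at 0.308 or below. Osteoblast-like values rest on 439 of 957 cells.

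Over 33 sums of a population in a library, which share libraries and differ in depth, the genes with the most similar levels were named by the correlation of log2(CPM + 10) across 13625 genes, as a description. Wif1 ran with Chad (r = 0.90), a cartilage matrix protein, with Fzd9 (0.88) and with Frzb (0.86). Frzb in turn ran with Fzd9 (0.87), Wif1 (0.86) and Slc20a1 (0.86), a phosphate transporter. Dkk2 ran with Tac1 (0.88), Tnmd (0.87) and Vipr2 (0.87), and Sfrp2 with Postn (0.95), Vipr2 (0.94) and Mfap4 (0.93), and Dkk2 and Sfrp2 had r = 0.84 with each other. Sfrp1 ran with Il7 (0.95), Hnmt (0.94) and Wdr86 (0.93), and Sfrp4 with Serping1 (0.92), B2m (0.92) and Cfb (0.92). Dkk3 ran with Igfbp6 (0.84), Ephx1 (0.83) and Wipf1 (0.82). Dkk1 was least well matched, with Pantr1 (0.72), Alpl (0.67), the alkaline phosphatase of mineralising cells, and Tnni2 (0.66). Sfrp5 ran with Pdrg1 (0.81), Sec14l1 (0.78) and Adgrg6 (0.77), and Notum with Pla2g5 (0.82) and Snhg4 (0.81), the latter a symbol that the files list under more than one identifier.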

How the data were processed

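Single cells from 3 libraries of a single group were profiled by the 10x 3′ v3.1 chemistry. The authors aligned and counted reads with Cell Ranger 7.1.0 against mm10 and deposited filtered matrices of raw UMI counts per gene and barcode. The cell number that the study states is larger than the number of deposited barcodes. The groups come from the labels.

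Barcodes with under 200 genes or over 20% mitochondrial UMIs were removed, then the highest doublet scores in a share that grew with cell number as in 10x loading (51, 362 and 837 cells), since the automatic threshold marked 42, 3 and 0. Cells were clustered with scanpy 1.11.5 (2000 variable genes without the 10 members and 65 pathway genes, 30 components, 15 neighbours, resolution 1). A class needed a marker score of at least 1 and a cartilage state of at least 0.5, the latter set after clusters and member levels had been seen. Names were rebuilt here from markers. Counts were summed per library and population of at least 10 cells and tested with edgeR 4.0.16 (TMM, quasi-likelihood, library as block, Benjamini-Hochberg over all genes, threshold 0.05), in R 4.3.3. The test was checked on simulated data. Both populations of a comparison come from the same libraries, and same-library deviations correlated with a mean r of 0.223 (lowest 0.0128, 84 pairs, 7959 genes), against -0.0934 between libraries. All 10 members are named, with the 3 called pathway genes of largest change in each direction, the response genes and the 3 genes most alike to each member, of which 1 is not reported here. Members and lists were chosen with earlier results of these data known. Alternatives were RLE scaling, DESeq2 1.42.0, no low-count filter, no block, each library left out, doublets kept, a mitochondrial limit of 10%, another resolution, other variable genes and, chosen after seeing the data, the weakest cartilage cluster left out. Bounds use a floor of 3 UMIs over the group and intervals are exact at 95%.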

Additional observations from a re-analysis of the deposited data

Results flagged for a closer look

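Signals above the blood-like reading appeared in clusters that no comparison used. The unnamed cluster led by Inhba and Chil1 (248 cells, 199 of them in replicate 1) had 488 CPM of Wif1 (466 to 511 over 3 libraries, against 4.43 to 49.0 in blood-like cells) and 73.2 CPM of Frzb (60.7 to 90.4, against 0.324 to 13.8). Schwann-like cells had 55.8 CPM of Sfrp5 from 17 UMIs (27.3 to 81.6, against 0.216 to 3.05). An unnamed cluster led by Serpina1b, 45 of whose 46 cells were in replicate 1, was read in that library alone: 209 CPM of Sfrp4 (53 UMIs), 74.7 CPM of Sfrp5 (19 UMIs), 62.9 CPM of Wif1 (16 UMIs) and 43.3 CPM of Notum (11 UMIs). The cause of these signals was not tested.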

How the results depend on the processing

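Of 36 member calls, 16 were kept under every alternative run, 19 were lost under at least 1 and 3 were reversed under at least 1. No call was lost with RLE scaling or without the low-count filter. DESeq2 called 8 members in cartilage against other stroma (5 with edgeR), 4 in superficial-like against growth-plate-like (7) and 3 in tendon-like against fibroblast-like (6), and 1675 genes in the Lef1 cluster comparison (3871). Without the replicate block that comparison had 4 called members and 928 genes, and 7 of the 36 calls were lost in all. With a mitochondrial limit of 10% another cluster was chosen, with 0 of 6 members called by edgeR (1 at an unadjusted p below 0.05) and 148 genes, and the tendon-like comparison had 3 members. Leaving out a library in turn gave 5 to 10 members and 1037 to 9529 genes in cartilage against other stroma, 2 to 9 and 1736 to 8081 in superficial-like, 3 to 8 and 644 to 5375 in hypertrophic-like, 5 to 7 and 665 to 6714 in the Lef1 cluster, 3 to 4 and 1739 to 4316 in CAR-like, and 2 to 6 and 492 to 2170 in tendon-like comparisons. Replicates 2 and 3 cost the most calls when left out (15 and 10). Reversed values were Sfrp4 in superficial-like cells (-0.63 with a higher resolution, -1.14 with members and pathway genes among the variable genes, -0.21 without the weakest cartilage cluster), Dkk3 in hypertrophic-like cells (1.33 with the higher resolution, 1.59 with those variable genes, 1.77 with the 10% limit) and, in the Lef1 cluster comparison, Dkk1 (0.093, 10% limit), Dkk3 (-0.50, higher resolution) and Frzb (0.90, those variable genes), the last 2 called by edgeR, as were the 3 values of Dkk3 in hypertrophic-like cells. The cause was not tested. Dkk2 had the fewest UMIs of the members, 525 in 1.52% of cells.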
